A study of Mus musculus with 6 samples.

Results

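The conjugation enzymes of the mouse kidney were described as the glutathione S-transferases (GST), microsomal GST, UDP-glycosyltransferases (UGT) and sulfotransferases (SULT) found in 6 whole-kidney RNA sequencing libraries. Members were all genes whose symbol begins with Gst (classes a, k, m, o, p, t and z), Mgst, Ugt or Sult followed by a number, with at least 10 counts in 3 or more of the 6 libraries. Of 24422 genes in the count tables, 64 had such a symbol and 43 passed this limit, 37 of them with at least 10 counts in all 6 libraries. Of the members, 3 (Gsta1, Mgst2 and Sult4a1) had 10 counts or more in all knockouts but in at most 1 control. One member, Ugt1a6b, was too low to be tested, which left 42 members among 15171 genes tested.

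The libraries came from C57BL/6 kidneys at postnatal day 60, with 3 biological replicates in each of 2 groups, all on a diet of 220 ppm iron. Controls carried the genotype label wild type. TfR1KO;KspCre mice were labelled Tfr1f/f;KspCre: both alleles of the transferrin receptor gene have exons flanked by recombination sites, and Cre is driven by the promoter of Ksp-cadherin, a cadherin of the distal nephron, so cells outside the reach of that promoter keep the gene. The comparison asks how transcript levels differ in the whole kidney after that deletion, and the TfR1KO;KspCre libraries are called knockouts here. Because whole kidneys were sequenced, fewer cells of a type and less RNA per cell cannot be told apart.

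Conjugation is the step of detoxification in which a small, charged group is attached to a drug, toxin, hormone or lipid product so that it can be exported. GST enzymes attach the tripeptide glutathione to electrophiles in the cytosol, and the microsomal GST do so in membranes. Most UGT enzymes transfer glucuronate from UDP-glucuronate in the endoplasmic reticulum, and SULT enzymes transfer sulfate from the donor PAPS in the cytosol. In the kidney the proximal tubule is a main site of these reactions, and its brush border carries the peptidases that trim glutathione conjugates on the way to mercapturates.

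Library totals ran from 11501053 to 21001341 counts. The smallest, knockout 3, had 2.59% of its counts on the ribosomal RNA gene Rn45s against 0.506% to 0.745% in the others, and 160.7 CPM of summed collecting duct markers against 698.4 to 1289 CPM. It was also the lowest library for 4 of the 6 members called lower. Levels are given in CPM (counts scaled to a library of 1e+06 counts) after TMM normalisation, and changes as log2 fold changes, knockout minus control, with their standard error (SE). Values of single libraries stand in the order 1, 2, 3 within each group. A gene was called when edgeR's quasi-likelihood test gave an adjusted p under 0.05 over all 15171 genes. Tfrc itself overlapped between the groups, with 138.5, 167.9 and 61.95 CPM in the controls and 214.4, 85.96 and 40.6 CPM in the knockouts, so in whole kidney it did not serve as a check of the labels. The summed level of 10 proximal tubule markers was 14170 to 19330 CPM in the controls and 2381 to 7780 CPM in the knockouts, with 7 of 10 called lower and the defining markers Lrp2 and Slc34a1 present in every library. The summed level of 7 immune markers moved from 51.66 to 85.6 CPM in the controls to 364 to 1502 CPM in the knockouts (7 of 7 called higher), and that of 4 stromal markers from 183.8 to 324.2 CPM to 672.2 to 2789 CPM (3 of 4 called higher). The part of these shifts in the results on conjugation enzymes was not tested. Control 2 differed from the other 5 libraries in having 52 counts of Xist against 10458 to 23845, and 3980 counts of 4 Y-linked genes against 3 to 5. The labels used here do not give sex.

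The conjugation enzymes took 0.518%, 0.611% and 0.558% of all counts in the control libraries, and 0.424%, 0.349% and 0.247% in the knockouts. Their summed level was 6208 ± 894 CPM in the controls and 3123 ± 948 CPM in the knockouts (mean ± SD, n = 3), and the groups did not overlap. The class sums, in which abundant genes weigh most, differed in size of change. Summed GST transcripts were at 2567 ± 402 against 1965 ± 418 CPM, and summed microsomal GST at 222 ± 32.3 against 231 ± 26.6 CPM, both with overlapping groups. Summed SULT transcripts were at 832.5 ± 148 against 353.3 ± 94.1 CPM, without overlap. Sult1d1 alone was at 690.6 against 258.4 CPM. By gene, 4 of the 8 tested SULT genes were below 0 and 4 above, with a median log2 fold change of 0.1. UGT transcripts outside the UGT1A locus were at 2189 ± 1220 against 399.9 ± 318 CPM, also without overlap, and Ugt3a2 alone at 1338 against 245.1 CPM. The UGT1A genes overlapped at 398.8 ± 209 against 173.7 ± 134 CPM. These class sums were described without a test.

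Of the 42 members tested, 9 were called (21.4%), against 17.2% of all genes tested. Sult4a1, Gsta1 and Sult5a1 rose, and Gsto2, Sult1b1, Sult1d1, Gstz1, Gstt2 and Sult1c2 fell, with adjusted p between 0.0295 and 0.0385. Among all genes, 10.6% were called higher and 6.64% lower. Without multiple-testing adjustment, 20 members had p under 0.05 (47.6%, 5 higher and 15 lower), against 38.6% of all genes. The groups did not overlap in CPM in 18 members (42.9%, 14 with knockouts below), while 46% of all genes did not overlap. By direction, 7.14% of members were called higher and 14.3% lower, and the knockouts lay below all controls in 33.3% of members (22.2% of all genes) and above them in 9.52% (23.8% of all genes). Sult4a1 and Gsta1 met the limit of counts only through the knockouts, where they are high, so the counts of members called and called higher are descriptions and support nothing by themselves. The median log2 fold change was −0.36 over the members and 0.02 over all genes tested, with 26 members below 0 and 16 above.

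**Figure D1:**
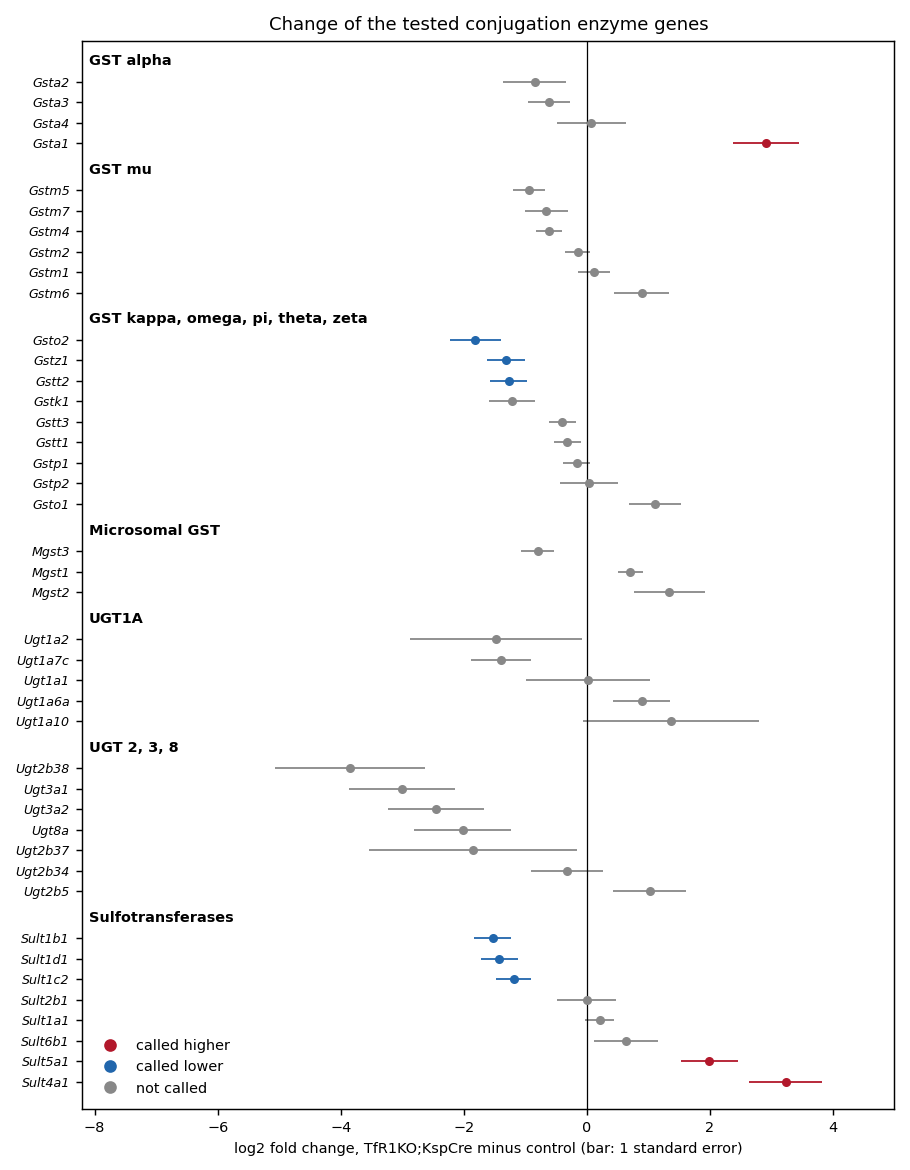
Log2 fold change (x axis, knockout minus control) of each of the 42 tested members (y axis), grouped by class, with bars of 1 SE. The 3 members called higher are in red, the 6 called lower in blue and the other 33 in grey. The longest bars belong to UGT genes such as Ugt2b37 and Ugt1a10.

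The number of calls depended on the libraries. When any one of controls 1, 2 and 3 or knockouts 2 and 3 was left out, edgeR called 0 members, and between 16 and 21 members (38.1% to 50%) had an unadjusted p under 0.05, against 27.4% to 31% of all genes in the same fits. This loss was not limited to the members, since over all genes tested 0% were called without control 1, 2 or 3, 0.474% without knockout 2 and 0.013% without knockout 3. Without control 2, 21 members still had an unadjusted p under 0.05 (6 higher and 15 lower), and the smallest adjusted p was 0.118. Without knockout 1, 19 of 43 members were called (44.2%, 5 higher and 14 lower, all 9 calls included), against 34.4% of all genes. Knockout 1 was the knockout nearest to the control mean in 35 of 42 members, or 83.3%, against 63.7% of all genes tested, and its proximal tubule marker sum was the highest of the 3 knockouts at 7780 CPM. DESeq2's Wald test called 20 members, 5 higher and 15 lower, including all 9, and 32.2% of all genes tested.

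In the SULT class 5 of 8 tested were called, 2 higher and 3 lower, against 17.2% of all genes (10.6% higher and 6.64% lower). Sult1d1, which sulfates catechols and related compounds, was the most abundant SULT. It lies at chr5:87983670-87998052 on the minus strand of mm9, the build of the deposited counts. It had 614, 876 and 581 CPM in the controls and 352, 234 and 189 CPM in the knockouts. Every knockout was below every control, and the log2 fold change was −1.42 (SE 0.30, adjusted p = 0.0326). Its neighbour Sult1b1, a phenol and thyroid hormone sulfotransferase at chr5:87942364-87967220 on the same strand, was far scarcer at 5.72, 4.58 and 5.40 CPM in the controls. The knockouts had 2.26, 1.76 and 1.38 CPM, again all below the controls, for a log2 fold change of −1.53 (SE 0.30, adjusted p = 0.0309). Sult1e1, the estrogen sulfotransferase that lies next to Sult1d1 at chr5:88004993-88020636, had 5 counts in all 6 libraries together and was no member.

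The 250 bases before the RefSeq starts of Sult1b1 (GRCm38.p6, chr5:87536223-87536472, minus strand) and Sult1d1 (chr5:87569007-87569256, minus strand) are shown because these adjacent genes fell together. Capitals mark the core of the xenobiotic response element, TGCGTG, on either strand. Sequences run 5′ to 3′ along the gene.
Sult1b1: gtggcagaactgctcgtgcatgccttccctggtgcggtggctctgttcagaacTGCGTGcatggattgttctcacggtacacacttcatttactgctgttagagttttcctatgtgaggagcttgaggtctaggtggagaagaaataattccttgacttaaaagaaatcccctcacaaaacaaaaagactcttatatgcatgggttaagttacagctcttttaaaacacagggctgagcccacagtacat
Sult1d1: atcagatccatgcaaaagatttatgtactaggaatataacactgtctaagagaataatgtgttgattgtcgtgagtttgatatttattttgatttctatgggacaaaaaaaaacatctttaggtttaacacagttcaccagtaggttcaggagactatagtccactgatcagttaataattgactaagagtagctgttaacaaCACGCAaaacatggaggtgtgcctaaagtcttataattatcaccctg
The TGCGTG core began 197 bases before the start in Sult1b1 and, on the opposite strand, 47 bases before it in Sult1d1. The letters were not found before a further RefSeq start of Sult1b1. Over windows from 250 bases before to 50 after the start, 38 members had a RefSeq promoter. TGCGTG was in 2 of these (5.3%, both shown) against 9.6% of all genes. The core of the antioxidant response element, TGACNNNGC, was in 4 members (10.5%), Gsta3, Gstm5, Gstm7 and Mgst1, against 14.0% of all genes, and in 0 of the 7 called members with a promoter. These matches are descriptions of letters and not of binding.

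Sult1c2, another phenol sulfotransferase (chr17:53968962-53985664, minus strand), was at 85.3, 88.2 and 126 CPM in the controls and 60, 40.6 and 30.8 CPM in the knockouts. The groups were apart, and the log2 fold change was −1.19 (SE 0.28, adjusted p = 0.0377). Sult5a1 (chr8:125666747-125682215, minus strand) moved the other way. It had 1.84, 1.53 and 2.40 CPM in the controls and 3.83, 11.8 and 7.35 CPM in the knockouts, with knockout 2 highest, and rose by a log2 fold change of 1.99 (SE 0.46, adjusted p = 0.0365). Its adjusted p was 0.0598 with limma-voom.

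Sult4a1, an orphan sulfotransferase best known from brain (chr15:83906527-83936184, minus strand), was nearly absent from the controls, with 2, 2 and 4 counts, and had 46, 25 and 11 counts in knockouts 1 to 3. In CPM this was 0.0995, 0.118 and 0.24 against 2.26, 1.25 and 0.843, and knockout 1 was the highest library. The fitted log2 fold change was 3.23 (SE 0.59, adjusted p = 0.0295). The ratio of the summed counts, 82 against 8, scaled by the normalised library sizes, was 10.3 (exact 95% interval 5 to 24.7, counting error only). It was the one called member in which knockout 1 was not the knockout nearest to the controls.

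The other 3 SULT genes tested did not pass. Sult1a1, the main phenol sulfotransferase, was at 31.5 ± 8.70 CPM in the controls and 36.5 ± 7.13 CPM in the knockouts (log2 fold change 0.21). Sult2b1, which sulfates cholesterol and its oxidised products, was at 2.9 ± 1.5 and 2.89 ± 1.17 CPM. Sult6b1 was between 0.393 and 1.23 CPM in every library (log2 fold change 0.63, SE 0.52).

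**Figure D2:**
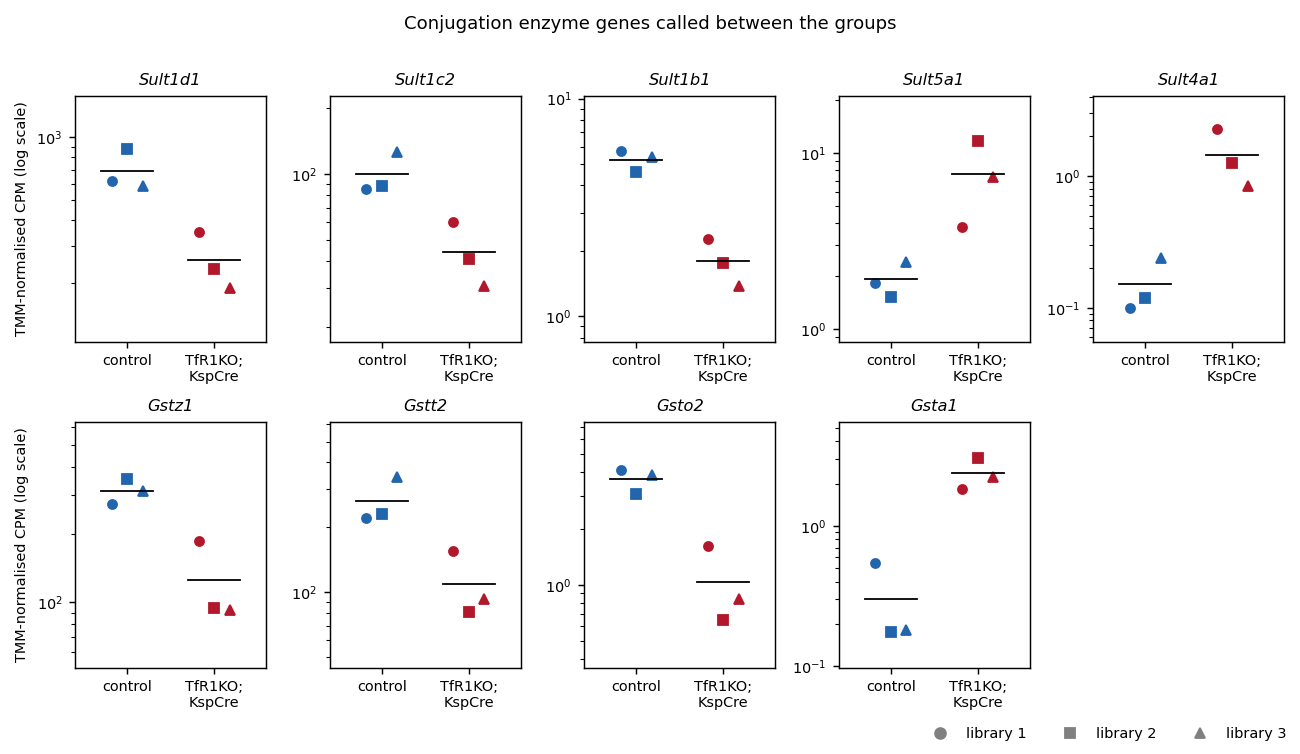
TMM-normalised CPM (y axis, log scale, own range per panel) in each of the 6 libraries for the 9 called members. Circles, squares and triangles are libraries 1, 2 and 3 of a group, blue for control and red for TfR1KO;KspCre, and lines are group means. In every panel the groups are apart, and knockout 1 (red circle) is the red symbol nearest to the controls except in Sult4a1.

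Among the GST genes, 4 of 19 outside the microsomal family were called and 0 of 3 within it, against 17.2% of all genes. The 3 that fell belong to the zeta, theta and omega classes. Gstz1, maleylacetoacetate isomerase of tyrosine breakdown (chr12:88488668-88505673, plus strand), had 274, 352 and 312 CPM in the controls and 188, 94.1 and 92.3 CPM in the knockouts. Every knockout was lower, with a log2 fold change of −1.32 (SE 0.31, adjusted p = 0.0376). A share of 7.7% of its exon bases overlaps Pomt2 on the opposite strand, and the strand setting of the counting was not given in the sources used here.

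Gstt2, of the theta class (chr10:75294590-75297626, minus strand), had 220, 230 and 343 CPM in the controls and 155, 80.6 and 93.2 CPM in the knockouts. The groups did not meet, and the log2 fold change was −1.27 (SE 0.30, adjusted p = 0.0385). The other theta genes overlapped between groups, with log2 fold changes of −0.40 for Gstt3 and −0.32 for Gstt1. Gsto2, of the omega class that reduces dehydroascorbate (chr19:47940035-47960814, plus strand), was low, at 4.13, 3.06 and 3.84 CPM in the controls and 1.62, 0.652 and 0.843 CPM in the knockouts. It fell by 1.81 on the log2 scale (SE 0.42, adjusted p = 0.0365). Its neighbour Gsto1 (chr19:47929460-47939280) had 76.5, 36.2 and 84 CPM in the controls and 75.7, 174 and 174 CPM in the knockouts. Gsto1 did not pass (log2 fold change 1.11, SE 0.42, adjusted p = 0.101), and knockout 1 lay within the range of the controls. Without knockout 1 it was called higher.

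Gstk1, a GST of mitochondria and peroxisomes, had no overlap between groups, at 89.6, 83.3 and 99.1 against 64, 29.2 and 23.4 CPM, but missed the threshold (log2 fold change −1.22, SE 0.37, adjusted p = 0.0605). The pi class did not separate the groups, with log2 fold changes of −0.16 for Gstp1 and 0.03 for Gstp2. These 2 genes share sequence, and only 42.7% and 42.3% of their 100-base words were unique to them.

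In the alpha class, 1 of 4 members was called, against 17.2% of all genes. Gsta2 was its most abundant gene (chr9:78178825-78203595, minus strand), at 338, 133 and 513 CPM in the controls and 265, 164 and 118 CPM in the knockouts. Control 2 lay between knockouts 2 and 3, so the groups overlapped (log2 fold change −0.85, SE 0.51, adjusted p = 0.257). Gsta1 (chr9:78078463-78090491, plus strand) was about as scarce as Sult4a1. It had 11, 3 and 3 counts in the controls and 37, 61 and 29 counts in the knockouts, or 0.547, 0.176 and 0.18 CPM against 1.82, 3.06 and 2.22 CPM. All knockouts were above all controls, with a log2 fold change of 2.91 (SE 0.54, adjusted p = 0.0296), and of 3.66 without control 1, which held 11 of the 17 control counts. Scaled in the same way, the ratio of summed counts, 127 to 17, was 7.53 (exact 95% interval 4.52 to 13.3, counting error only).

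Gsta1 and Gsta2 were compared because the counts used only uniquely mapped reads. Over the 669 coding bases compared, the GENCODE M1 transcripts differed at 14 bases (97.9% identical), and the first 196 coding bases were the same. The stretch from coding base 361 to 510 held 6 of the differences, shown in capitals, 5′ to 3′.
Gsta1: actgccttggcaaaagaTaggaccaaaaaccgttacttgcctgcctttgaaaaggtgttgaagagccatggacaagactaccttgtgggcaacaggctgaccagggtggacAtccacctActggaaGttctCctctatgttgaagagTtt
Gsta2: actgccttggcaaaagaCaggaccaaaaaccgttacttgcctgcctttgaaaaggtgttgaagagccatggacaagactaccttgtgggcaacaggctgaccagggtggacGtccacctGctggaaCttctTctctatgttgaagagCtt
Only 18.2% of the 100-base words of the Gsta1 transcript, and 65.0% of those of Gsta2, were found in no other gene's transcript. Besides each other, both shared words with Gm10639 and Gm3776. Reads as long as these words from the rest of Gsta1 could not map uniquely, so the level of Gsta1 and its ratio to Gsta2 are uncertain.

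Gsta3 and Gsta4 did not pass. Gsta4, which conjugates the lipid peroxidation product 4-hydroxynonenal, was at 147, 47 and 209 CPM in the controls and 149, 200 and 73.9 CPM in the knockouts, so control 2 was the lowest of all libraries. Gsta3 had a log2 fold change of −0.61 (SE 0.34). In the mu class, 0 of 6 members passed, and 2 of 6 had an unadjusted p under 0.05, both lower in the knockouts, against 17.2% and 38.6% of all genes. Gstm1, a broad-range GST (chr3:107815173-107820891, minus strand), had the highest level per length of all members in the mean of both groups together. That level was 492 CPM per kb of transcript, and the rank was not taken within each group. Its controls had 581, 665 and 583 CPM and its knockouts 696, 818 and 462 CPM, with knockouts on both sides of the controls (log2 fold change 0.11, SE 0.26, adjusted p = 0.776). Gstm5 was nearest to a call, at 135 ± 22.3 CPM in the controls and 70.3 ± 23.9 CPM in the knockouts with no overlap (log2 fold change −0.94, SE 0.26, adjusted p = 0.0508). A share of 13.9% of its exon bases overlaps a gene on the opposite strand, 4933431E20Rik. Gstm4 and Gstm7 had log2 fold changes of −0.61 and −0.66, Gstm2 −0.15 and Gstm6 0.89.

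The 3 microsomal GST genes did not pass, and their log2 fold changes differed in sign. Mgst1, an abundant membrane-bound GST and peroxidase (chr6:138088837-138105276, plus strand), was at 109, 82.7 and 99.1 CPM in the controls and 132, 202 and 142 CPM in the knockouts. Every knockout was above every control (log2 fold change 0.71, SE 0.21, adjusted p = 0.0583). Mgst3 was below the controls in every knockout, at 124 ± 20.5 against 71.3 ± 26.1 CPM (log2 fold change −0.80, SE 0.27, adjusted p = 0.0792). Mgst2 was scarce, between 0.294 and 1.86 CPM (log2 fold change 1.34, SE 0.58).

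The UGT genes had the largest negative log2 fold changes among the members, but 0 of 12 were called by edgeR's quasi-likelihood test, with 5 of 12 (41.7%) at an unadjusted p under 0.05, all lower, against 38.6% of all genes, and a smallest adjusted p of 0.0543. DESeq2's Wald test called 5 of the 12 lower (Ugt1a7c, Ugt2b38, Ugt3a1, Ugt3a2 and Ugt8a), against 32.2% of all genes called in either direction. It gave Ugt2b37 no adjusted p. The UGT3 enzymes use sugar donors other than UDP-glucuronate, and Ugt3a2 was the most abundant UGT gene in every library. Ugt3a1 was below Ugt1a2 in all libraries but control 2. Ugt3a2 (chr15:9265305-9300710, plus strand) had 1070, 1920 and 1020 CPM in the controls and 539, 128 and 68.3 CPM in the knockouts. All knockouts were below all controls, and the spread among the knockouts was wide (log2 fold change −2.45, SE 0.78, adjusted p = 0.0676). Its neighbour Ugt3a1 (chr15:9209584-9244787, plus strand) had 266, 559 and 261 CPM in the controls and 104, 18.9 and 11.7 CPM in the knockouts (log2 fold change −3.00, SE 0.86, adjusted p = 0.0543). Both had the same order of libraries, with control 2 highest and knockout 3 lowest. Both passed the threshold when knockout 1 was left out (log2 fold change −3.78, adjusted p = 0.00337 for Ugt3a2 and −4.57, adjusted p = 0.00278 for Ugt3a1), and without control 2 their log2 fold changes were −2.11 and −2.56 with adjusted p of 0.176 and 0.149.

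Control 2 set 5 UGT genes apart, and these were picked out after their values were seen. It was at least 4-fold above or below both other controls in 5 of 42 members (11.9%), against 0.468% of all genes tested, and all 5 were UGT genes. Control 1 stood apart in this way in 1 member and control 3 in 0. Ugt2b37 was at 129 CPM in control 2 and at 0.796 and 0.6 CPM in controls 1 and 3, which made control 2 185 times the mean of the others. Its knockouts, at 10.2, 16.8 and 9.12 CPM, lay between. The log2 fold change of Ugt2b37 was −1.85 (SE 1.69, adjusted p = 0.45) with all 6 libraries and 4.08 (SE 0.46, adjusted p = 0.118) without control 2, the opposite sign. Ugt2b38 had 31.1, 816 and 64.9 CPM in the controls and 26.7, 21.4 and 14.9 CPM in the knockouts (log2 fold change −3.85, SE 1.22, adjusted p = 0.0679). Here control 2 was 17.0 times the mean of the other controls, and all knockouts were below all controls. Without control 2 the log2 fold change of Ugt2b38 was −1.21 (SE 0.38). Ugt8a, the galactosyltransferase of myelin and kidney galactolipids, had 37.4, 153 and 16.5 CPM in the controls and 24.6, 10.5 and 15.9 CPM in the knockouts. With control 2 the log2 fold change of Ugt8a was −2.02 (SE 0.79), and −0.67 (SE 0.47) without it.

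Ugt1a2, the UGT1A gene with the highest mean CPM (chr1:90097176-90115572, plus strand), went the opposite way in control 2. It had 358, 2.59 and 476 CPM in the controls and 199, 70.4 and 29.3 CPM in the knockouts. Control 2 was the lowest of the 6 libraries, with 44 counts where controls 1 and 3 had 7190 and 7923. The log2 fold change was −1.48 with an SE of 1.40 (adjusted p = 0.464), and −2.08 with an SE of 0.73 (adjusted p = 0.149) without control 2. With all 6 libraries it was −0.03 with limma-voom and −0.54 with the replicate number as a block. Ugt1a1, the bilirubin transferase, had 3.93, 0.47 and 5.40 CPM in the controls and 3.48, 5.97 and 0.383 CPM in the knockouts. The library low in Xist and high in Y-linked transcripts was thus also the one with these UGT levels, and with 1 such library the part of sex or of that kidney cannot be told apart.

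**Figure D3:**
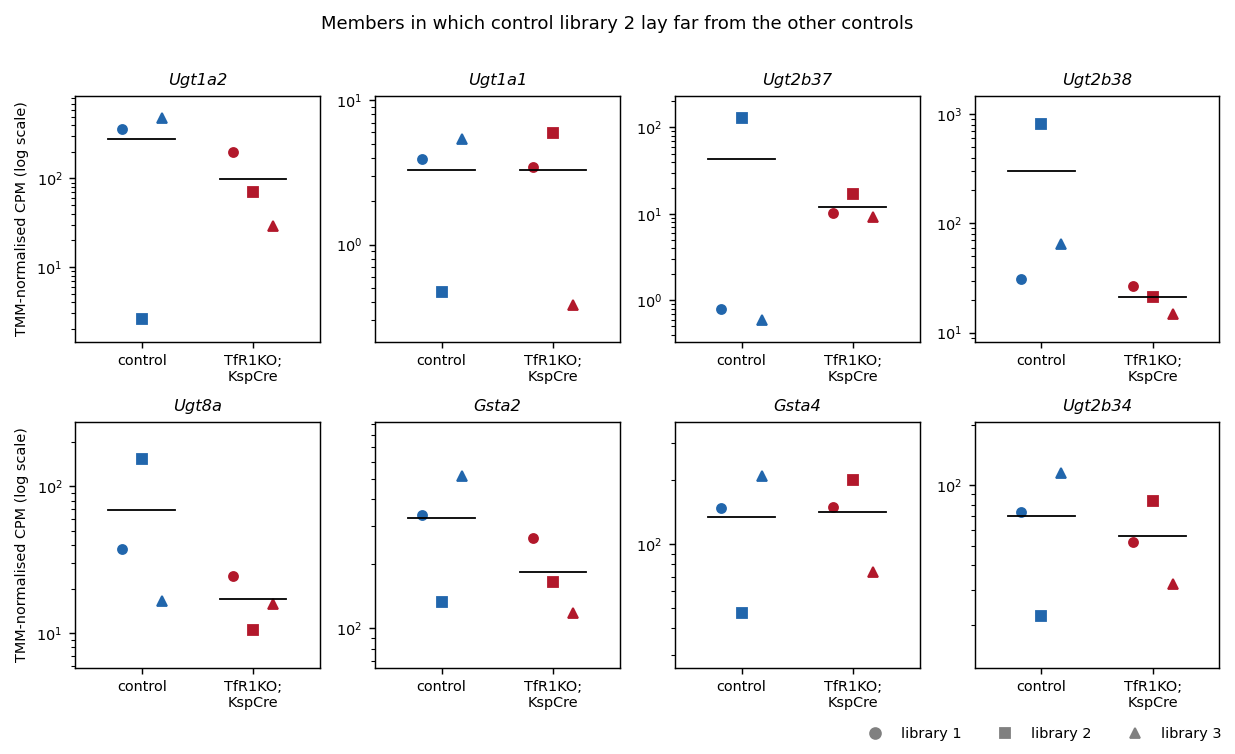
TMM-normalised CPM (y axis, log scale, own range per panel) per library for the 5 UGT genes in which control 2 (blue square) was at least 4-fold from both other controls, and for Gsta2, Gsta4 and Ugt2b34, in which it was the lowest control. Circles, squares and triangles are libraries 1, 2 and 3, blue for control and red for TfR1KO;KspCre, and lines are group means. In Ugt2b37 the blue square is at 129 CPM and in Ugt1a2 at 2.59 CPM.

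Of the remaining UGT genes, Ugt1a7c was below the controls in every knockout, at 75.3, 155 and 78.3 against 50.3, 50.3 and 15.7 CPM (log2 fold change −1.40, SE 0.49, adjusted p = 0.0835). Ugt1a10 spanned 1.07 to 56.1 CPM and was highest in control 1 and knockout 1 of their groups. Ugt1a6a, which acts on simple phenols, had a log2 fold change of 0.89, Ugt2b5 of 1.02 and Ugt2b34 of −0.32, all with overlap. Without control 2 these were 0.74, 1.90 and −0.76, none of them called. The UGT1A genes use different first exons with common last exons: 48.8% to 78.3% of the exon bases of each of the 6 members lay in exons of other UGT1A genes on the same strand. Reads in the common exons cannot be given to 1 gene, and the way the counting treated them was not given in the sources used here. Ugt2b38 and Ugt2b5 also share sequence, with 75.8% and 75.7% of their 100-base words unique.

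The members were then set against the proximal tubule markers within each library, as the log2 ratio of a member's CPM to the summed CPM of the 10 markers. The log2 of the marker sum, averaged over the libraries of a group, had a difference of −2.17, so a member at the same log2 CPM in both groups is higher by that much in this ratio. The mean ratio was higher in the knockouts in 39 of 42 members, and the groups were apart with the knockouts above in 30 (71.4%). Over all genes tested with counts in every library, the mean ratio was higher in 98.5% and the groups were apart with the knockouts above in 91%. Ugt3a1 was the 1 member below the controls in every knockout (2.38% of members, against 0.331% of all genes), at −5.74, −5.11 and −6.08 against −6.22, −7.24 and −7.67. Ugt3a2 and Ugt2b38 had lower means (differences of −0.77 and −0.36) with overlap. Without control 2 the difference was −1.13 for Ugt3a1, −0.57 for Ugt3a2 and 0.94 for Ugt2b38, which turned sign, and Ugt1a2 turned from 2.14 to −0.40. Sult1d1, Sult1b1 and Gsto2, which were called lower in CPM, had mean differences of 0.73, 0.61 and 0.25 in this ratio, with overlap. The other 3 members called lower, Gstz1, Gstt2 and Sult1c2, were above the controls in every knockout, with differences of 0.77, 0.87 and 0.95. Gstm1 and Mgst1 differed by 2.24 and 2.86. These ratios were described without a test.

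The genes that make the co-substrates of conjugation, process and export the products or regulate the enzymes were taken as 6 lists. Of 45 tested, 14 were called (31.1%, 2 higher and 12 lower), with a median log2 fold change of −0.74. Over all genes tested 17.2% were called, 10.6% higher and 6.64% lower, with a median of 0.02, and these shares are also the background of the counts per list that follow. In glutathione synthesis, 2 of 8 were called. Slc7a11, the cystine importer, had 5, 8 and 5 counts in the controls and 38, 105 and 16 counts in the knockouts and rose (log2 fold change 3.03). It reached 10 counts only in the knockouts, so its call, like those of Sult4a1 and Gsta1, is of a gene that passed the filter through the group where it is high. Gclm, the modifier subunit of the enzyme that makes gamma-glutamylcysteine, had 194, 328 and 209 CPM in the controls and 128, 83.3 and 51.1 CPM in the knockouts and fell (log2 fold change −1.48). Slc7a11 was thus the 1 gene of this list above 0, with the other 7 below.

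The list of glutathione conjugate processing had 8 genes, among them Ggct and Oplah, which belong to glutathione turnover. All 8 had a log2 fold change below 0, with a median of −1.58, and 4 of 8 were called. Acy3, an aminoacylase that acts on mercapturates, fell from 834, 2080 and 678 CPM to 334, 119 and 103 CPM (log2 fold change −2.69). Anpep, aminopeptidase N of the brush border, had a log2 fold change of −1.65, Dpep1, a dipeptidase, of −1.29 and Ggct, gamma-glutamylcyclotransferase, of −1.73. Ggt1, the brush-border transferase that takes the first step, had the highest mean CPM of the list over both groups, though Acy3 was higher in the control mean. Ggt1 had 916, 1450 and 865 CPM in the controls and 682, 259 and 236 CPM in the knockouts and did not pass (log2 fold change −1.45, SE 0.47). Without knockout 1 edgeR called it lower (log2 fold change −2.13, adjusted p = 0.00432), and without control 2 it was at −1.19 (adjusted p = 0.191). The markers of the proximal tubule, where these peptidases are known to act, had a median log2 fold change of −2.12.

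In the supply of UDP-glucuronate, 2 of 5 were called, both lower. Slc35d1, which carries nucleotide sugars into the endoplasmic reticulum, had a log2 fold change of −1.24, and Ugp2, which makes UDP-glucose, of −0.75. In the supply of sulfate and its donor, 2 of 9 were called, both lower. Papss2, a PAPS synthase, had 555, 475 and 692 CPM in the controls and 270, 122 and 86.7 CPM in the knockouts (log2 fold change −1.84). Its paralog Papss1 was at 127 ± 11 against 90.3 ± 14.7 CPM and did not pass (log2 fold change −0.49). Slc26a1, a sulfate transporter, fell by 2.18 on the log2 scale. Of the 6 exporters of conjugates, Abcc2 of the apical membrane fell (log2 fold change −1.22), and Abcg2, the most abundant, did not pass (log2 fold change −1.31, SE 0.37).

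Among the 9 regulators tested, 3 were called. Nfe2l2, which encodes NRF2, a regulator of many GST genes, had 140, 114 and 120 CPM in the controls and 171, 206 and 186 CPM in the knockouts and rose (log2 fold change 0.59, SE 0.15). Hnf4a, a nuclear receptor of proximal tubule and liver, fell with a log2 fold change of −1.59, as did the fatty acid sensor Ppara with −1.66. Hnf4a, the most abundant of the list, had 629, 863 and 733 CPM in the controls and 393, 190 and 155 CPM in the knockouts. As with the enzymes themselves, the calls needed all controls: without control 2, edgeR called 0 of 46 related genes tested and 24 had an unadjusted p under 0.05, against 0% and 27.4% of all genes. Leaving out control 1, control 3, knockout 2 or knockout 3 also left 0 called, and without knockout 1 there were 24, against 34.4% of all genes. Without knockout 1 the log2 fold changes were −3.44 for Acy3, −2.41 for Ggct, −2.47 for Papss2 and −3.18 for Slc26a1, and without control 2 that of Acy3 was −2.04. In these 2 fits the other called related genes moved by no more than 1.5 times.

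**Figure D4:**
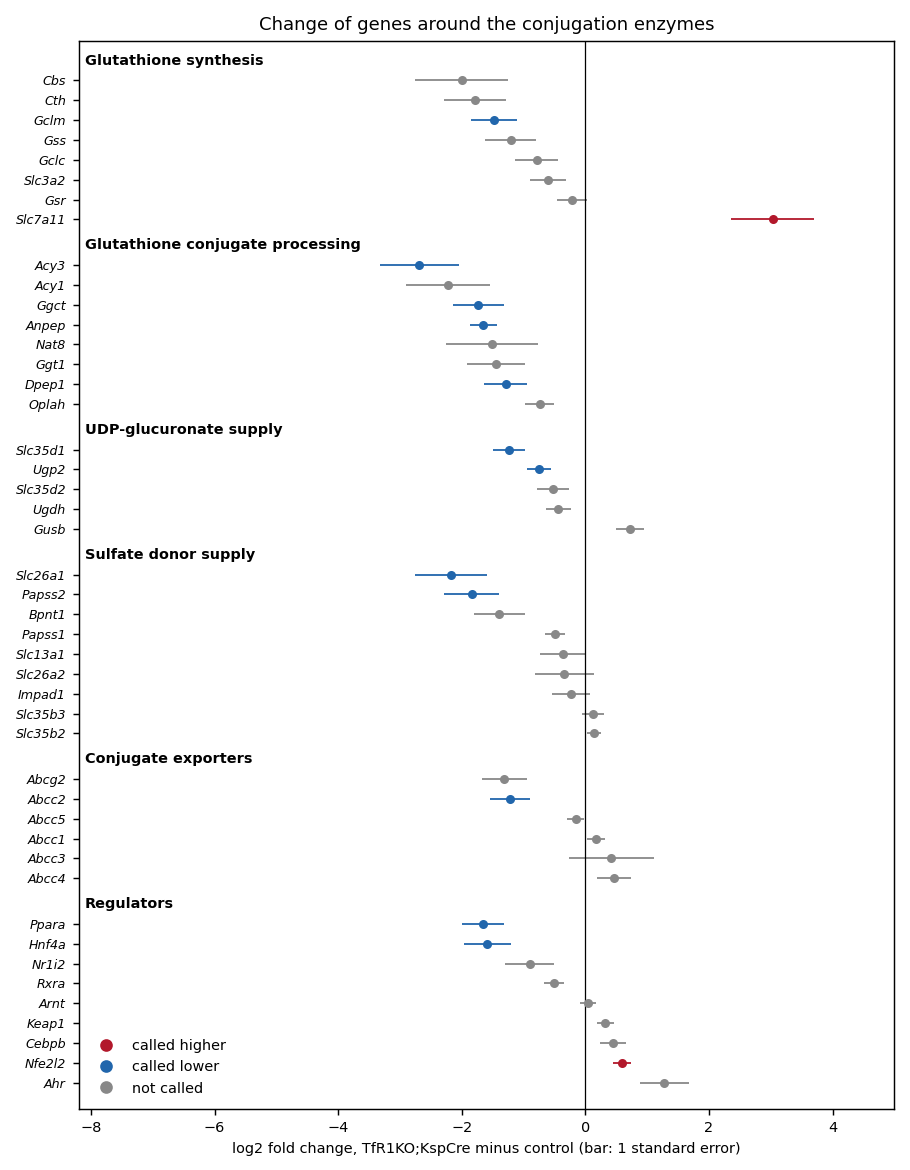
Log2 fold change (x axis, knockout minus control) of the 45 tested genes around the conjugation enzymes (y axis), in 6 lists, with bars of 1 SE. The 2 genes called higher, Slc7a11 and Nfe2l2, are in red and the 12 called lower in blue. All 8 genes of the list of glutathione conjugate processing, which also holds Ggct and Oplah, lie left of 0.

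The 21 genes of the same families that did not reach the limit of counts had between 0 and 36 counts in all 6 libraries together. Several had most or all of their counts in control 3: Sult2a3 had 24 of 33 there, Sult2a1 9 of 10, Sult3a1 6 of 6, Sult2a8 5 of 5 and Ugt2b36 5 of 5. Control 3 also had 74.9 CPM of Alb, the liver protein albumin, against 2.46 to 8.01 CPM in the other libraries, and 39 counts of Cps1, a liver enzyme, of which knockout 2 had 22 and the others 0 to 2. The part of liver RNA in these counts was not tested.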

How the data were processed

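Poly-A RNA from 6 whole mouse kidneys was sequenced as single reads of 100 bases. Per the methods of the study and the submitters' processing notes, the authors called bases with CASAVA 1.8.2, trimmed reads with Trimmomatic, aligned them to mm9 with TopHat2 2.0.11, discarded reads that mapped to several places and used HTSeq for gene counts. The deposited values are raw counts in 1 table per group. The gene annotation and strand setting were not given in the sources used here. Unique mapping lowers the counts of genes with near-identical copies.

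Groups came from the sample labels. Counts were filtered with filterByExpr (minimum count 10, minimum total 15), normalised by TMM and tested with edgeR 4.0.16 (quasi-likelihood, no covariate) in R 4.3.3 with Benjamini-Hochberg adjustment over all genes tested. Pairs of libraries of a group differed by 52.9 or more in chi-square per degree of freedom, more than counting error alone gives. This value cannot tell different animals from repeated samples of 1 animal. Each library was counted as 1 replicate on its label. Coordinates are from GENCODE M1 on mm9, and uniqueness was the share of 100-base words of the longest protein-coding transcript found in no other gene. Intervals on ratios are exact and cover counting error only.

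The members, the marker and related gene lists and the tests were chosen with earlier results of these data known. A gene of the lists is not reported here and stayed out of their counts. In each class, the member with the highest mean CPM and up to 3 called rises and 3 called falls were given per library, and other values shown were chosen after they were seen. Alternatives used DESeq2 1.42.0 and limma 3.58.1, other filters, scalings and thresholds, a replicate block, and each library left out. The edgeR steps were tested on simulated data.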

Additional observations from a re-analysis of the deposited data

How the results depend on the processing

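The 9 called members kept their direction under every alternative run. The number called was 9 to 11 with DESeq2 size factors, library size alone, no filter, a minimum of 10 counts in 3 libraries, limma-voom (8 of the 9 and Ugt3a1) and the newer quasi-likelihood version. Scaling by library size alone moved the median of all genes to 0.29 and that of the members to −0.11. DESeq2's Wald test called 20 members (5 higher, 15 lower) and 26 related genes, with 32.2% of all genes. An adjusted p under 0.10 gave 18 members, 14 of them lower, and 26 related genes, with 33.2% of all genes.

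With the replicate number as a block (replicate block), 0 members (0 higher, 0 lower) and 0 related genes were called, as were 0 of all 15171 genes, and 18 members (42.9%) had an unadjusted p under 0.05, against 35.8% of all genes. The deviations of samples of the same number had correlations of −0.129, 0.0116 and 0.215, against −0.254 to 0.221 for samples of unlike number. With 3 libraries a group these values cannot show whether samples of the same number share a litter or batch. The labels used here do not say. With each library left out in turn, the number of members called ran from 0 to 19 (0 to 5 higher, 0 to 14 lower) and of related genes from 0 to 24, with 0 in all but the fit without knockout 1, and the median of the members ran from −0.53 to −0.33. The cause was not tested.

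Direction turned only in members that were not called. With library size alone Gstm2 was at 0.12 and Gstp1 at 0.11. With DESeq2's Wald test Ugt1a1 was at −0.01, with limma-voom Ugt2b37 was at 1.62, and with the replicate block Ugt1a1 was at −0.06 and Ugt2b37 at 1.6. With 1 library left out, log2 fold changes ran from −0.35 to 0.53 for Gsta4, −0.08 to 0.31 for Gstm1, −0.22 to 0.5 for Gstp2, −0.71 to 0.57 for Ugt1a1, −0.28 to 3.76 for Ugt1a10, −0.76 to 0.22 for Ugt2b34, −0.4 to 0.45 for Sult2b1 (near 0 with all libraries) and −2.44 to 4.08 for Ugt2b37. Among the called members, Sult4a1 and Gsta1 had the fewest counts in the controls, with 8 and 17 in all.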
